A study of Mus musculus with 4 samples.

Results

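Small nucleolar RNAs (snoRNAs) and Cajal body RNAs (scaRNAs) were followed in 4 RNA-seq libraries of GC-1 cells. The members were all rows of the expression table named Snora, Snord or Scarna with a number and with at least 20 counts summed over the 4 libraries. This rule took 44 of the 55385 rows of the table. They were 23 of 42 Snora rows, 20 of 99 Snord rows and 1 of 9 Scarna rows. Of the 150 rows with such a name, 33 had no count in any library and 73 had between 1 and 19. The members were thus chosen by their summed counts, so the levels below are a description.

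snoRNAs are short nuclear RNAs that guide chemical changes of ribosomal RNA. Box C/D snoRNAs, the Snord genes, guide 2'-O-methylation with the methyltransferase fibrillarin, and box H/ACA snoRNAs, the Snora genes, guide the change of uridine to pseudouridine with dyskerin. scaRNAs guide the same changes of spliceosomal RNAs in the Cajal body. In mammals most of them are cut from the introns of host genes, many of which encode ribosomal proteins or are the non-coding Snhg and Gas5 genes, and the mature RNA has no poly(A) tail.

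GC-1 is a mouse cell line of spermatogonial origin. The cells were transfected by lipofection with the MYC plasmid, the control, or with the MYC-TET1 plasmid, which overexpresses TET1, an enzyme that oxidises 5-methylcytosine. Each of the 4 pairings of a plasmid with a time, 24 h or 36 h after transfection, gave 1 library. The labels call the control untreated in their treatment field, although the study transfected it with the MYC plasmid. The levels are averages over transfected and untransfected cells, and fewer cells with an RNA cannot be told apart from less of it in each cell.

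The library totals were between 60611877 and 72547105 estimated counts. Tet1 was at 0.0525 and 0.0562 FPKM (fragments scaled to transcript length and library depth) in the MYC libraries, and at 40.2 (24 h) and 19.6 (36 h) in the MYC-TET1 libraries, as the labels say. Of 9 germ cell markers, 8 were below 1 FPKM in all libraries, with Dazl, Lin28a and Stra8 at a count of 0, and only Uchl1 was above it, at 10.5 to 12.9 FPKM. The 5 Sertoli cell markers summed to between 23.1 and 36.3 FPKM, the 4 Leydig cell markers to at most 0.547 FPKM, and the 4 stromal markers, led by Col1a1 and Vim, to between 437 and 482 FPKM. Below 1 FPKM in all libraries were 2 Sertoli markers, Fshr at a count of 0 and Amh, 1 stromal marker, Pdgfrb, and all 4 Leydig markers. The transcripts of the labelled germ cell type were therefore mostly absent, and the part of cell type in the values below was not tested.

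The sequences of the members with the most counts show the boxes by which the classes are known. They are printed 5′ to 3′ as DNA letters from the GENCODE M21 transcripts of GRCm38, with the C box (TGATGA), the D box (CTGA) or the ACA box in capitals where a script found it at the end where it belongs. The C box was looked for in the first 15 bases, the D box in the last 12, and the ACA box with exactly 3 bases after it. The C and D boxes were looked for in Snord rows only, and the ACA box in Snora and Scarna rows only.
Snora2b: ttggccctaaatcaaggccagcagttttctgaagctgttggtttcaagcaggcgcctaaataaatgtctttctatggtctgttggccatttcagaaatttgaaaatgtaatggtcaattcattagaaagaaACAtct
Snora57: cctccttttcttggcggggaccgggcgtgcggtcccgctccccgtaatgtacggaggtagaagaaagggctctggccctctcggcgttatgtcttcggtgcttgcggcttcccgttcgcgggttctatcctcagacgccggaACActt
Snord104: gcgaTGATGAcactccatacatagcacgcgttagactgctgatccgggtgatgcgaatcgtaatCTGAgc
Snora2b lay at chr15:98526346-98526482 on the minus strand, Snora57 at chr19:8888538-8888685 on the minus strand, and Snord104 at chr11:106500993-106501062 on the plus strand (GRCm38). Both boxes were found in 13 of the 20 Snord members, the C box in 14 and the D box in 17. The ACA box was found in 19 of the 23 Snora members. Over 32544 promoter windows cut to 80 bases and read on 1 strand, the C box was found at the same place in 0.366%, the D box in 4.69% and both in 0.0184%. Of the same windows cut to 137 bases, 1.62% had the ACA box. In a Snord or Snora member a missing box says only that these letters were not in that stretch.

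The members were rare in these libraries. Together they had 5159 counts, 0.00190% of all counts, and 54.7% of these belonged to Snora2b, Snora57 and Snord104. On the CPM scale, which divides counts by the library total, their sum was 18.2 and 18.5 CPM at 24 h in MYC and MYC-TET1, and 20.3 and 19.1 at 36 h. The summed level thus changed little with the plasmid or the time, and single members changed beneath it. The median member had 47 summed counts, and 16 of the 44 had at least 10 counts in every library. The count rule fell across a run of similar values: Scarna6, Snord89 and Snord91a were just inside with 20 counts, and Snora15 and Snord93 just outside with 18.

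Snora rows had a median length of 132.5 bases and 54.8% of them were members, whereas Snord rows had a median of 84 bases and 20.2% were members. Within the Snora rows, members had a median of 137 bases and the other rows 132, and within the Snord rows 80 and 85. Scarna6, the only Scarna member, has 265 bases and the other Scarna rows a median of 139.5. The kit named in the labels, in its standard form, selects poly(A) RNA and does not mark the strand, and its part in which snoRNAs were counted was not tested.

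**Figure D1:**
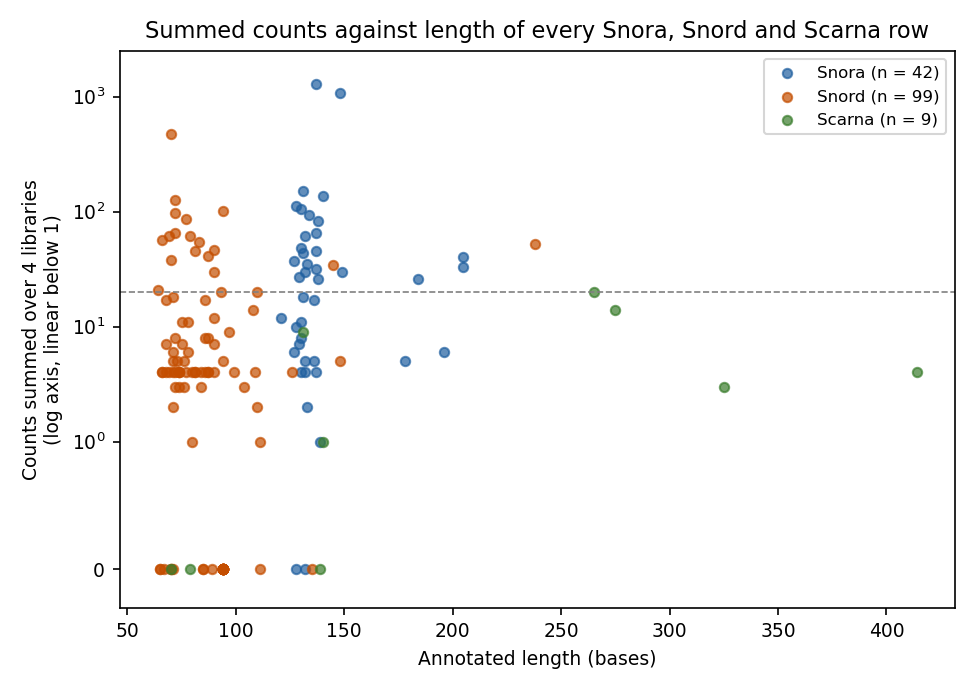
Each point is 1 of the 150 Snora, Snord and Scarna rows, with its annotated length in bases on the x axis and its counts summed over the 4 libraries on the y axis, which is logarithmic above 1. The dashed line is the rule of 20 counts, and 44 points lie on or above it, with the Snord rows near 80 bases mostly below it and 33 rows at 0.

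RNAs with well known roles in making ribosomes ranged from a count of 0 to 469 summed counts. Snord118 (U8), which is needed to process the large subunit RNA, had a count of 0 in every library, where the limit that a count of 0 allows was 0.0414 to 0.0495 CPM. Snord13 had 3 summed counts, Snord14d 4, Snord22 4, Snord15a 5 and Snora74a 6. U3, the C/D RNA that starts the cleavage of the pre-rRNA, is listed under Rnu3 names outside the rule. Its 3 highest rows, Rnu3b1, Rnu3a and Rnu3b4, had 38, 25 and 23 summed counts. Of the same list of well known RNAs, Snord104 had 469 summed counts, Snord17 52, Snora73b 40 and Snora73a 33, and these 4 were members.

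Per length, Snora2b and Snora57 were the highest members at a mean of 31.3 and 24.0 FPKM over the 4 libraries, followed by Snord104 at 22.3. Then came Snord49a at 5.59, Snord49b at 4.42 and Snora68 at 3.70, and the median member was at 1.53. The FPKM of a short RNA is large for few reads. Snora2b had 1291 summed counts at 31.3 FPKM, and its host gene Kansl2 had 10297 counts in MYC at 24 h alone, yet the FPKM of Snora2b was 85.3% of that of Kansl2. Levels are therefore given below as counts, and ratios as log2 of CPM with 0.5 added to each count. Intervals are exact 95% intervals of a count ratio. They cover counting error only. Each condition had 1 library, and no test was run.

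**Figure D2:**
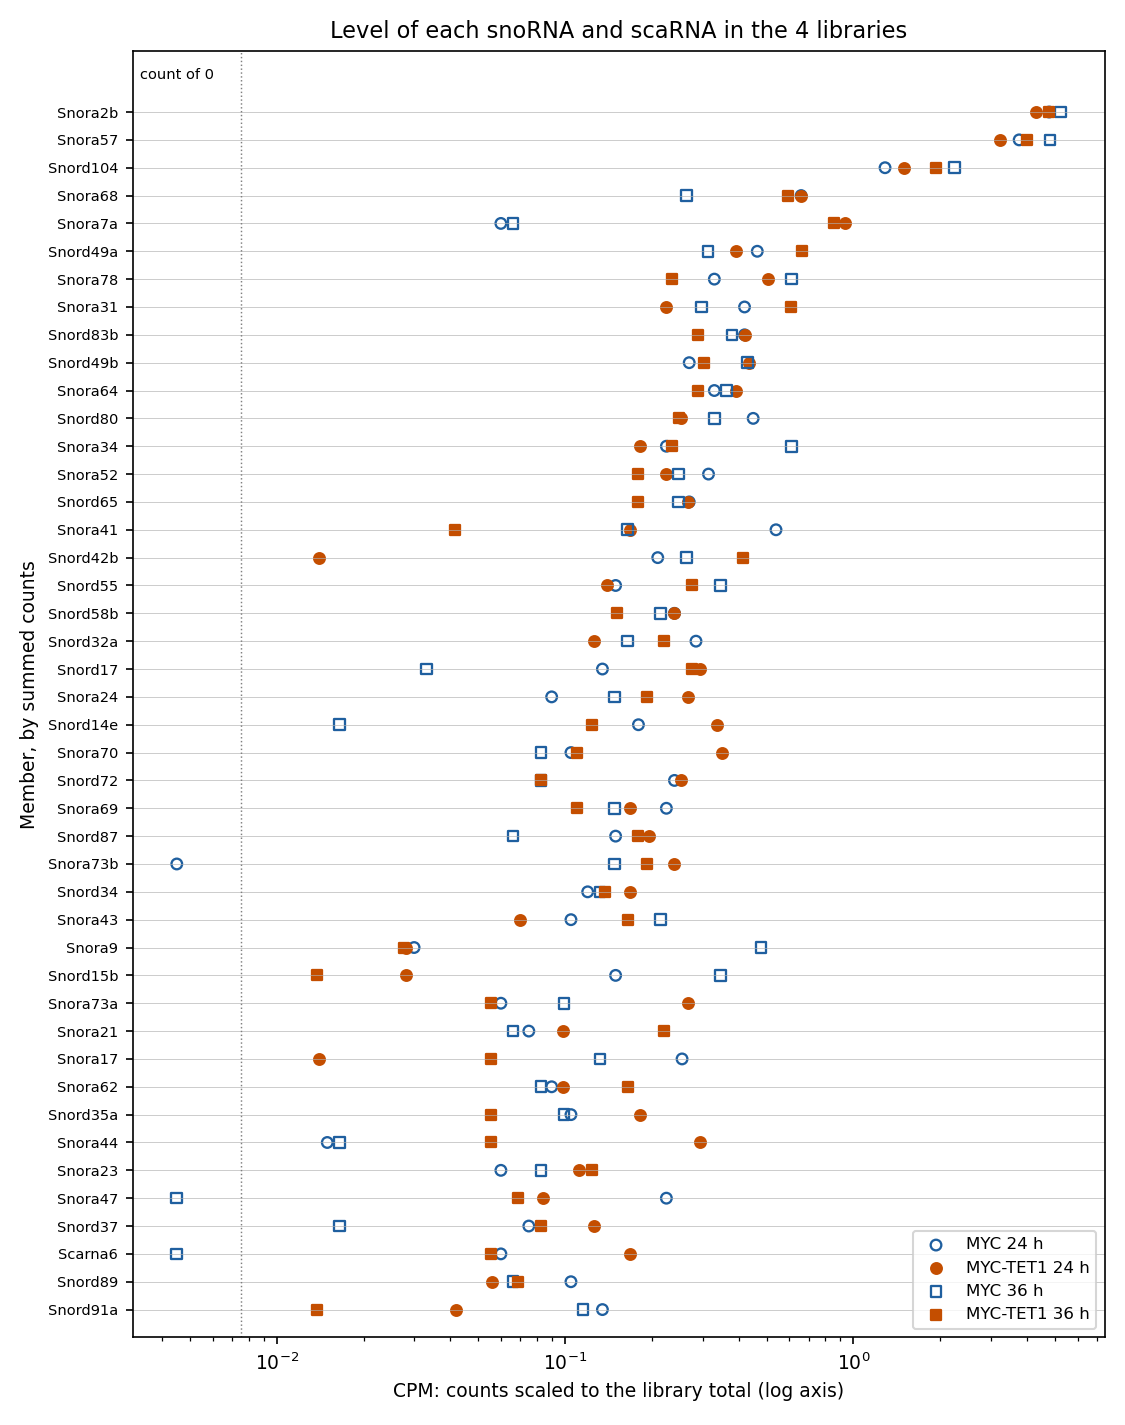
The level of each of the 44 members is plotted in CPM on a log axis, with open symbols for MYC, filled symbols for MYC-TET1, circles for 24 h and squares for 36 h. Snora2b, Snora57 and Snord104 lie apart at the right, the 2 filled symbols of Snora7a lie far to the right of its open ones, and the 3 counts of 0 are left of the dotted line.

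The 3 most counted members changed little with the plasmid. Snora2b had 319 and 308 counts at 24 h in MYC and MYC-TET1, and 317 and 347 at 36 h. The 4 levels in CPM lay within 1.21-fold of each other, the narrowest range of the 41 members counted in every library. Its log2 plasmid ratio, which is that of MYC-TET1 over MYC here and below, was -0.15 (interval -0.38 to 0.08) at 24 h and -0.13 (-0.35 to 0.10) at 36 h, so each interval held equal levels. In each pair of counts the MYC library comes before the MYC-TET1 library.

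Snora57 had 251 and 231 counts at 24 h, and 291 in each at 36 h. Its log2 ratio was -0.22 (-0.48 to 0.05) at 24 h and -0.26 (-0.50 to -0.02) at 36 h, a difference far below 2-fold. Snord104 had 86 and 107 counts at 24 h, and 136 and 140 at 36 h. Its log2 ratio was 0.22 (-0.21 to 0.64) at 24 h and -0.22 (-0.57 to 0.13) at 36 h, which is no shared direction. Snora57 overlaps Lbhd1, which had 11207 summed counts, on the opposite strand, from which its reads cannot be told apart without strand, and a near-identical copy, Gm26132, had no count in any library.

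Snora7a had the largest ratio in the same direction at both times among the members. It is an H/ACA RNA encoded in Rpl32, a ribosomal protein gene, and it had 4 and 67 counts at 24 h, and 4 and 62 at 36 h. Both MYC-TET1 libraries lay far above both MYC libraries, and the groups did not overlap. The log2 ratio was 3.81 (2.55 to 5.89) at 24 h and 3.54 (2.27 to 5.62) at 36 h, and with the libraries of each plasmid summed the level was 13.5-fold higher with MYC-TET1. Rpl32 itself had 53129 and 55440 counts at 24 h, and 48217 and 56523 at 36 h, with log2 ratios of -0.04 and -0.03. The host gene was thus level where the snoRNA row was not.

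The row of Snora7a lies inside an exon that the annotation gives as untranslated sequence of a protein-coding Rpl32 transcript, so its reads may come from the snoRNA or from that transcript, and the 2 sources cannot be told apart in these values. Its sequence is not printed for that reason. Among all 18430 rows with at least 20 summed counts, 103 had a larger ratio in the same direction at both times, counted by the smaller of the ratios. Snora7a was the only member with at least 100 summed counts that was 2-fold different at both times. It had 4 counts in each MYC library, so it met the rules of 20 and of 100 counts through the MYC-TET1 libraries, where it was high. Its place among the better counted members is therefore not independent of its ratio.

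At 24 h, 15 of the 44 members (34.1%) were at least 2-fold different between MYC-TET1 and MYC, 8 higher (beside 6.8% of all rows) and 7 lower (6.8%), beside 13.6% of all 18430 rows with at least 20 counts in either direction. At 36 h, 19 members (43.2%) were, 12 higher (8.45%) and 7 lower (7.14%), beside 15.6%. Averaged over the times, 14 members were, 8 higher (6.42%) and 6 lower (5.27%), beside 11.7%. Rows with few counts pass such a line more often, and the share has to be read by count. Among rows with fewer than 100 summed counts, 14 of 35 members (40%) passed at 24 h beside 49.8% of the 3511 rows, and again 14 of 35 at 36 h beside 54.7%. The share of these members was thus below that of the rows at both times. Of the 9 members with at least 100 counts, 1 passed at 24 h beside 5.07% of 14919 rows, and 5 passed at 36 h beside 6.37%. The 5 that passed at 36 h had only 106 to 150 summed counts. The 14919 rows have no upper limit of counts, so these shares are not of rows with like counts.

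**Figure D3:**
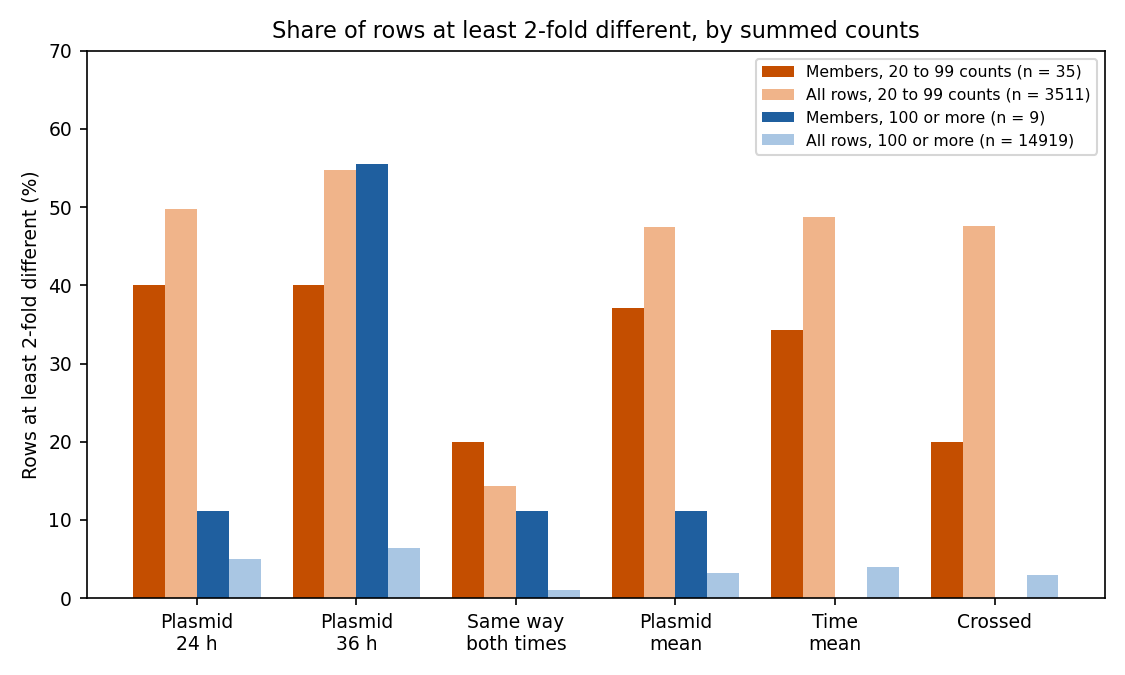
Bars give the percent of rows at least 2-fold different in each comparison, for members (dark) and all rows (pale), apart for rows with 20 to 99 summed counts (orange) and with 100 or more (blue). Among rows with few counts the members are below all rows in each comparison except for the same direction at both times, at 20% beside 14.4%.

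The 5 well counted members at 36 h were Snora7a, Snora68, Snord49a, Snora31 and Snora78. Snora68 had 44 and 47 counts at 24 h in MYC and MYC-TET1, and 16 and 43 at 36 h. Its log2 ratio was 0.00 (-0.63 to 0.62) at 24 h and 1.14 (0.31 to 2.09) at 36 h, and the low value was that of MYC at 36 h alone. A near-identical copy of it, Gm22661, had 0 and 7 counts at 24 h, and 2 and 4 at 36 h, so reads could be split between them.

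Snord49a had 31 and 28 counts at 24 h, and 19 and 48 at 36 h, a log2 ratio of -0.24 (-1.04 to 0.54) and then of 1.06 (0.28 to 1.93). Snora31, encoded in Tpt1, had 28 and 16 at 24 h, and 18 and 44 at 36 h, a log2 ratio of -0.89 (-1.89 to 0.03) and then of 1.01 (0.21 to 1.91). Snora78 went the other way, with 22 and 36 at 24 h, and 37 and 17 at 36 h, a log2 ratio of 0.60 (-0.19 to 1.45) and then of -1.36 (-2.30 to -0.52). Snora78 lies opposite to Rps2, which had 7461 to 8019 counts in a library, so its reads cannot be told apart from those of Rps2 without strand. In Snord49a, Snora31 and Snora78 the sign of the ratio turned between the times, and the groups by plasmid overlapped. Snord83b, encoded in Rpl3, had 28 and 30 at 24 h, and 23 and 21 at 36 h, and was not 2-fold different at either time.

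At least 2-fold different the same way at both times were 8 members (18.2%), 4 higher (1.82%) and 4 lower (1.79%), beside 3.6% of all rows. Among rows with fewer than 100 counts these were 7 of 35 members (20%) beside 14.4%. The higher ones were Snora7a, Scarna6, Snora44 and Snord17, and the lower ones were Snord15b, Snora41, Snord91a and Snora17. Apart from Snora7a, their sequences are printed because they are the members that the plasmid comparison turns on.
Snora44: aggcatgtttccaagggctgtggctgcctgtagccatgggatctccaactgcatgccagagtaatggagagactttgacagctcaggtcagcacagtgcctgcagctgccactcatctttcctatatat
Snord17: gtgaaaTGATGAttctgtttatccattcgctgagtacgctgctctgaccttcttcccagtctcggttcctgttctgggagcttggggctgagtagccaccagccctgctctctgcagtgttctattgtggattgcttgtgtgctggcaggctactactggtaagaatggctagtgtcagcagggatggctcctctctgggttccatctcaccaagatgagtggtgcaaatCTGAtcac
Scarna6: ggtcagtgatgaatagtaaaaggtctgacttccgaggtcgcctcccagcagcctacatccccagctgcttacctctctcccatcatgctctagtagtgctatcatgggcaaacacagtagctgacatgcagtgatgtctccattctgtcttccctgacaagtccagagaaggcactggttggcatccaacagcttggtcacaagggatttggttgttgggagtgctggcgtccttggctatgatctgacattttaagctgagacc
Snord15b: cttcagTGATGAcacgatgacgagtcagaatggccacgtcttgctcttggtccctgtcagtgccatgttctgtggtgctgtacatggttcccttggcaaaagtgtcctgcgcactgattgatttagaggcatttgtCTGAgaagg
Snora41: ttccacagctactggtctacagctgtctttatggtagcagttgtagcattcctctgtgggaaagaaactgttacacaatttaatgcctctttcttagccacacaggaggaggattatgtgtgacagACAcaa
Snord91a: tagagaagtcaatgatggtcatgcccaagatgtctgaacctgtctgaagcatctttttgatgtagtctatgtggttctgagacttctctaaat
Snora17: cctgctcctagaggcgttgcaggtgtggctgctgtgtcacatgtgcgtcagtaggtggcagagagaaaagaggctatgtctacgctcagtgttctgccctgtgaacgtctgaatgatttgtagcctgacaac
They lay at chr4:132309941-132310069 on the plus strand (Snora44), chr2:144265979-144266216 on the minus strand (Snord17), chr1:87784556-87784820 on the plus strand (Scarna6), chr7:99479563-99479707 on the minus strand (Snord15b), chr1:63179004-63179135 on the plus strand (Snora41), chr11:74905424-74905516 on the plus strand (Snord91a) and chr2:26639190-26639321 on the minus strand (Snora17), all in GRCm38. Both boxes were found in Snord17 and Snord15b, and the ACA box in Snora41 but not in Snora44 or Snora17. Scarna6 holds the letters of the C box and the D box in the same stretches, but it was not searched for them. They are therefore not in capitals. They belonged to all 3 classes.

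Snord17, a long C/D RNA in an intron of Snx5, had 9 and 21 counts at 24 h, and 2 and 20 at 36 h. The log2 ratio was 1.08 (-0.06 to 2.44) at 24 h and 2.78 (1.02 to 6.20) at 36 h, and both MYC-TET1 libraries lay above both MYC libraries. Snora44, an H/ACA RNA in an exon of the non-coding gene Snhg12, had 1 and 21 counts at 24 h, and 1 and 4 at 36 h. Its log2 ratio was 3.74 (1.66 to 9.67) at 24 h, and 1.33 (-1.60 to 7.36) at 36 h, where the interval held equal levels. Most of the counts of Snora44 were thus in 1 library, MYC-TET1 at 24 h.

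Scarna6 was the only scaRNA counted often enough to be a member. It had 4 and 12 counts at 24 h, a log2 ratio of 1.38 (-0.23 to 3.58), and 0 and 4 counts at 36 h. The exact interval at 36 h began at -0.86 on the log2 scale and had no upper limit, so it held equal levels. With the limit of 3 counts in place of the 0 the ratio was 1.11-fold, so 2-fold at that time rests on the 0.5 that is added to each count. With counts below 3 raised to 3, 6 members in place of 8 were 2-fold different the same way at both times, 2 higher and 4 lower. Scarna6 and Snora44 were the members lost.

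Of the lower members, Snord15b (U15B), which guides methylation of large subunit RNA and is encoded in Rps3, had 10 and 2 counts at 24 h, and 21 and 1 at 36 h. Its log2 ratio was -2.17 (-5.65 to -0.19) at 24 h and -4.10 (-10.02 to -2.02) at 36 h, and the groups did not overlap. Snora41, encoded in Eef1b2, had 36 and 12 counts at 24 h, and 10 and 3 at 36 h. Its log2 ratio was -1.64 (-2.76 to -0.71) and -1.84 (-4.50 to -0.04), about alike at the 2 times, but the level in MYC at 36 h was slightly below that in MYC-TET1 at 24 h.

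Snord91a, encoded in Tsr1, had 9 and 3 counts at 24 h, and 7 and 1 at 36 h, a log2 ratio of -1.54 (-4.20 to 0.32) and of -2.58 (-8.56 to -0.11). Snora17 had 17 and 1 counts at 24 h, and 8 and 4 at 36 h, a log2 ratio of -3.64 (-9.57 to -1.51) and of -1.18 (-3.44 to 0.64). In both the 2 MYC-TET1 values lay below the 2 MYC values, on few counts. Of the 8 members, only Snora7a, Snord15b and Snora41 had intervals without equal levels at both times. These intervals leave out the error of rounding and of assigning reads to rows. The count of 1 of Snord15b in MYC-TET1 at 36 h stood for an estimate of 0.02, and Snora41 has a near-identical copy, Gm23723.

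**Figure D4:**
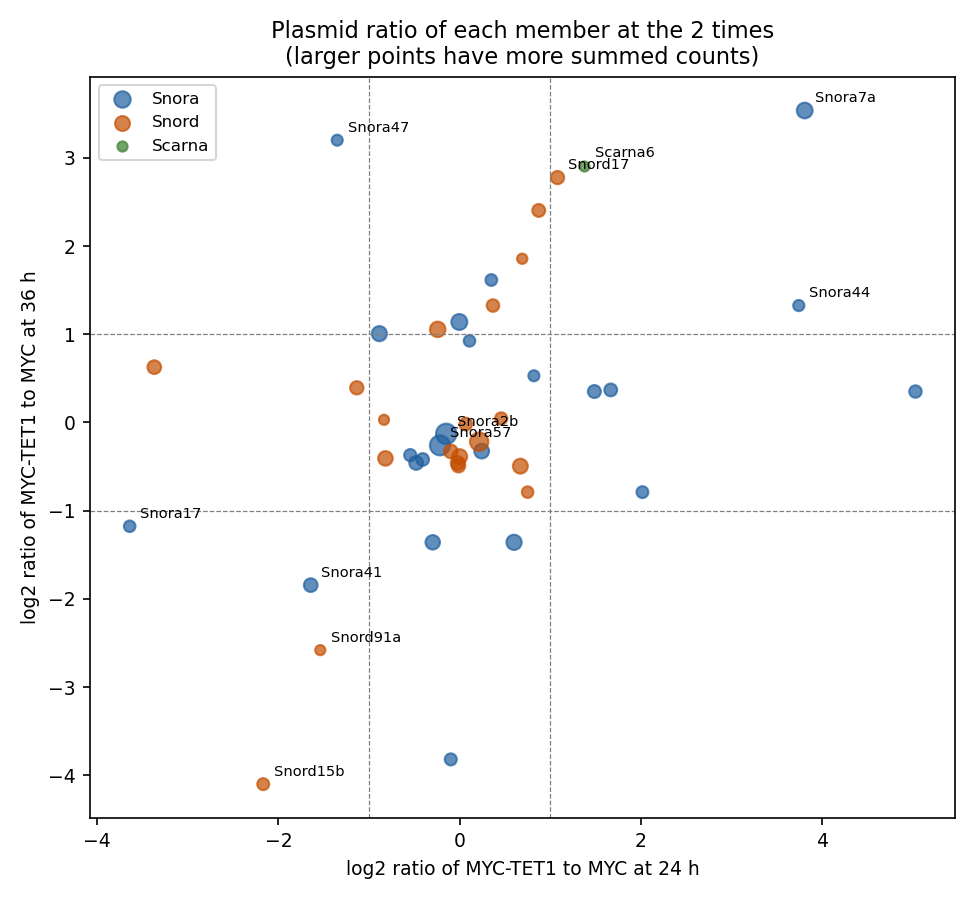
Each point is 1 of the 44 members, with its log2 plasmid ratio at 24 h on the x axis and at 36 h on the y axis, coloured by class, and dashed lines mark 2-fold. Snora7a lies alone at the upper right, Snora2b and Snora57 lie near the centre, and Snora47 is the member past 2-fold in opposite directions.

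Ratios at 24 h and at 36 h come from separate libraries. Over the 44 members, Pearson's r between them was 0.39 and Spearman's rho 0.39, and 29 had the same sign at both times. Over all rows r was -0.01, and without Snora7a it was 0.31 over 43 members. The points share the library totals and are sparse counts, so this describes the 4 libraries and is no finding. Both MYC-TET1 libraries were above both MYC libraries for 12 members and below for 6, together 40.9% of the members beside 29% of all rows. The higher share was 27.3% beside 14.4%, and the lower 13.6% beside 14.6%. Among rows with fewer than 100 counts, 17 of 35 members (48.6%) did not overlap beside 31.2%, 11 of them higher (31.4% beside 16.1%) and 6 lower (17.1% beside 15%).

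The remaining members at least 2-fold different at 1 time were named after their values were seen, where the rule had not named them. At 24 h, Snora70 (7 counts in MYC and 25 in MYC-TET1) and Snora24 (6 and 19) were higher with MYC-TET1, and Snord42b (14 and 1) and Snord32a (19 and 9) were lower. At 36 h, Snord14e, a U14 RNA encoded in Hspa8 (1 and 9), Snord37 (1 and 6), Snora21 (4 and 16) and Snord87 (4 and 13) were higher, and Snora9 (29 and 2) and Snora34 (37 and 17) were lower. Each of these was less than 2-fold different at the other time. Snora47 was the only member past 2-fold in opposite directions, lower at 24 h (15 and 6) and higher at 36 h (0 and 5), beside 3.36% of all rows, and its value at 36 h rests on a count of 0. In the MYC library at 36 h, Snord14e and Snord37 each had a count of 1. Of all 176 counts of the members, 3 were 0 and 8 were 1, and 4 of these 8 stood for an estimate below 0.5 that had been rounded up.

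Below 2-fold at both times were 19 members. Apart from the members described above and below, they included 5 with at least 40 summed counts, named after their values were seen. Snora64, encoded in Rps2, had 22 and 28 counts at 24 h, and 22 and 21 at 36 h. Snord80, encoded in Gas5, had 30 and 18, then 20 and 18. Both MYC-TET1 values of Snord80 lay below both MYC values, with a log2 ratio of -0.82 (-1.76 to 0.06) and of -0.41 (-1.41 to 0.58), intervals that held equal levels. Snora52 in Rplp2 had 21 and 16, then 15 and 13, Snord58b in Rpl17 had 16 and 17, then 13 and 11, and Snora69 in Rpl39 had 15 and 12, then 9 and 8. The other 4 of these members, Snora43, Snora62, Snora23 and Snord89, had between 4 and 13 counts in each library.

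A pair of near-identical H/ACA RNAs, Snora73a and Snora73b (U17), takes part in cleaving the pre-rRNA of the small subunit, and both are encoded in Snhg3. Their sequences, printed to show how little tells them apart, had 198 identical bases in 205 columns (96.6%).
Snora73a: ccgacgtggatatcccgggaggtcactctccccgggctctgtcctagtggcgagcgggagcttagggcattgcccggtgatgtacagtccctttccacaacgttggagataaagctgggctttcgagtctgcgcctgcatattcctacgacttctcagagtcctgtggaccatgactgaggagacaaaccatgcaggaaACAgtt
Snora73b: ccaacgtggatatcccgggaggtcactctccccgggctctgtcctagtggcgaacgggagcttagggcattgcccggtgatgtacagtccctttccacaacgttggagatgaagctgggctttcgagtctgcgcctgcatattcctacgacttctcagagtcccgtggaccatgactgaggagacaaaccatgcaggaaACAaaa
Snora73a lay at chr4:132352775-132352979 on the minus strand, and Snora73b at chr4:132352322-132352526 on the minus strand (GRCm38). Snora73a had 4 and 19 counts at 24 h, and 6 and 4 at 36 h, a log2 ratio of 2.02 (0.56 to 4.17) and then of -0.79 (-3.11 to 1.23). Snora73b had 0 and 17 counts at 24 h, and 9 and 14 at 36 h. Its exact interval at 24 h began at a log2 ratio of 1.95 and had no upper limit, and its log2 ratio at 36 h was 0.35 (-0.93 to 1.77). Snhg3 had 1013 and 1694 counts at 24 h, and 924 and 638 at 36 h, with log2 ratios of 0.64 and -0.79. Snhg3 shared these signs with Snora73a, while Snora73b was higher with MYC-TET1 at both times. Reads could be split between the copies. Snora73a lies in an exon of an Snhg3 transcript, and both members lie opposite to Gm17300, with 1262 summed counts, so the values of these 3 rows are uncertain.

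Of the 44 members, 39 lay within a gene on the same strand, in 33 host genes. Ribosomal protein genes held 16 of them in 14 genes, and Snhg genes or Gas5 held 8. By the annotation 26 lay in an intron of the host, 12 in an exon of a non-coding transcript of it, 9 of these of the retained intron type, and 1, Snora7a, in an exon of a protein-coding transcript. The other 5 were Snora57, Snord104, Snord42b, Snora43 and Snora17. Of the 26 in introns, 3 were higher and 4 lower with MYC-TET1 at 24 h, and 8 higher and 4 lower at 36 h. Of all rows 6.8% were higher and 6.8% lower at 24 h, and 8.45% and 7.14% at 36 h. Without the members that overlap an exon of another gene, 7 of 27 were 2-fold different at 24 h, beside 13.6% of all rows, and 12 at 36 h, beside 15.6%. Of all rows with fewer than 100 counts, 49.8% and 54.7% were.

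Ratios of the host genes were smaller than those of the RNAs inside them. The median size of the log2 ratio over hosted members was 0.69 at 24 h and 0.79 at 36 h, and that of their hosts 0.04 and 0.07. At 24 h 13 of the 39 hosted members and none of their hosts were 2-fold different, beside 13.6% of all rows. At 36 h 18 members were, beside 15.6% of all rows, and 1 host, Gm15832. That host had 3 counts in MYC and 41 in MYC-TET1, while its Snord89 had 4 and 5. Of all rows with fewer than 100 counts, 49.8% were 2-fold different at 24 h and 54.7% at 36 h. Most hosts were counted far more often than their members, with up to 296920 counts in a library, so the larger ratios of the members stand beside a larger counting error. Snhg9, with 4 and 5 counts at 24 h and 12 and 7 at 36 h, was counted less often than its Snora78. The median difference between a member and its host was 0.17 at 24 h and 0.00 at 36 h on the log2 scale with its sign, and the median size of that difference was 0.65 and 0.88. Over the 7 hosted members with at least 100 counts the signed median was 0.00 at 24 h and 1.05 at 36 h. Per length, the median member was at 1.64% of the FPKM of its host.

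**Figure D5:**
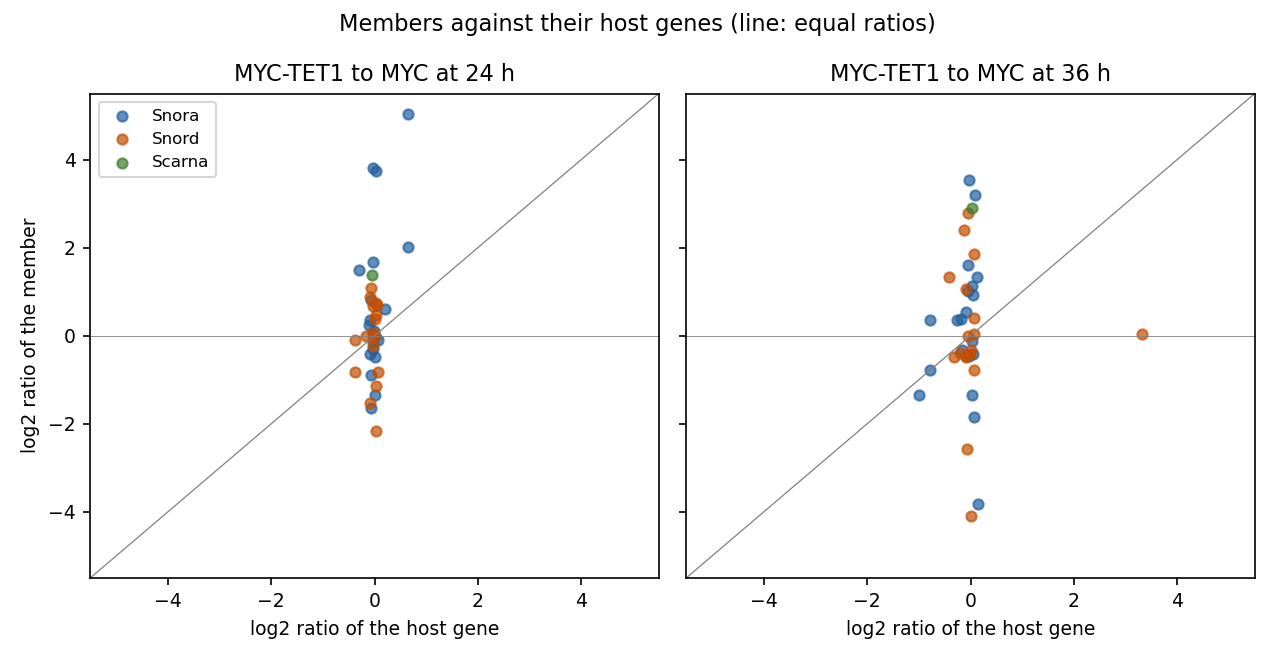
The log2 plasmid ratio of each of the 39 hosted members is plotted against that of its host gene at 24 h (left) and at 36 h (right), coloured by class, with a line for equal ratios. The points form a column near 0 on the x axis, and the point at the far right at 36 h is Snord89 with its host Gm15832.

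Some hosts held several members, whose values can be set side by side. Rpl13a holds Snord32a, Snord34 and Snord35a, C/D RNAs that have been linked to the response of cells to excess fatty acids. Snord32a had 19 and 9 counts at 24 h, and 10 and 16 at 36 h. Snord34 had 8 and 12, then 8 and 10, and Snord35a had 7 and 13, then 6 and 4. Their log2 ratios were -1.14, 0.46 and 0.75 at 24 h and 0.39, 0.05 and -0.79 at 36 h, where Rpl13a was at 0.02 and 0.06. Every interval of these ratios held equal levels, so no plasmid difference of the 3 was detectable at this depth.

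The non-coding gene 2410006H16Rik holds Snord49a, Snord49b and Snord65 in its introns. Snord49a and Snord49b are printed because the same pair of boxes frames sequences that had 70.7% identity over 75 aligned columns.
Snord49a: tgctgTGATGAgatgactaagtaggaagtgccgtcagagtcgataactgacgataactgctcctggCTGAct
Snord49b: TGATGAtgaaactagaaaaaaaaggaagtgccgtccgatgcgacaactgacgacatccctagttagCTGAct
They lay at chr11:62603450-62603521 on the plus strand, and at chr11:62603079-62603150 on the plus strand (GRCm38). Snord49b had 18 and 31 counts at 24 h, and 26 and 22 at 36 h, a log2 ratio of 0.67 (-0.20 to 1.61) and then of -0.50 (-1.39 to 0.38). Snord65 had 18 and 19, then 15 and 13. The ratio of Snord49a, given above, was negative at 24 h and positive at 36 h, opposite to that of Snord49b, while the host was at -0.03 and -0.08. In Kansl2, Snora2b was level, and Snora34 had 15 and 13 counts at 24 h and 37 and 17 at 36 h, a log2 ratio of -0.30 (-1.50 to 0.87) and then of -1.36 (-2.30 to -0.52). The microRNA row Mir1291 lies within Snora34 and had 10 and 4, then 22 and 4 counts, so the rows may share reads.

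Between 24 h and 36 h, averaged over the plasmids, 12 members (27.3%) were at least 2-fold different, 5 higher at 36 h (beside 6.04% of all rows) and 7 lower (6.52%), beside 12.6% in either direction. Among rows with fewer than 100 counts these 12 were 34.3% of the 35 members beside 48.8% of the rows, and none of the 9 better counted members passed, beside 4.04%. Each plasmid had 1 library at each time. The well counted Snord104 was higher at 36 h in both plasmids, with log2 ratios of 36 h to 24 h of 0.80 (0.40 to 1.21) in MYC and 0.36 (-0.01 to 0.74) in MYC-TET1. Snora57 was at 0.35 (0.10 to 0.60) and 0.31 (0.06 to 0.57), and Snora2b at 0.13 (-0.10 to 0.36) and 0.15 (-0.08 to 0.38). These differences were below 2-fold.

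At least 2-fold lower at 36 h in both plasmids were Snora41, Snord14e, Snord72 and Scarna6, and no member was 2-fold higher in both. These 4 were 9.09% of the members beside 2.24% of all rows lower, 2.03% higher and 4.27% either way. All 4 had fewer than 100 counts, where they were 11.4% of the members beside 8.4% of the rows lower. Snora41 was lower with log2 ratios of -1.66 (-2.88 to -0.67) in MYC and -1.86 (-4.49 to -0.13) in MYC-TET1. Snord14e was at -2.92 (-8.86 to -0.69) and -1.39 (-2.73 to -0.28), and Snord72 had 16 and 18 counts at 24 h and 5 and 6 at 36 h. Scarna6 was at -3.03 and -1.50, with intervals that held equal levels, and its value in MYC rests on a count of 0 at 36 h. Snord55 was higher, with 10 counts in each library at 24 h and 21 and 20 at 36 h. In Snord72 and Snord55 the libraries of 1 time lay apart from those of the other and the plasmids were close, and in Snora41 the times were apart by little. Of all members 7 lay higher at 36 h with no overlap (15.9% beside 24.4%) and 11 lower (25% beside 20%), together 40.9% beside 44.4% of all rows.

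In the crossed contrast, which takes 0.5 times the difference between the plasmid ratio at 36 h and that at 24 h, 7 members (15.9%) were past 2-fold, 3 higher (beside 6.19% of all rows) and 4 lower (5.31%), beside 11.5% in either direction. Among rows with fewer than 100 counts they were 20% of the members beside 47.6% of the rows. Higher were Snora47 (2.28), Snora17 (1.23) and Snord42b, whose log2 plasmid ratio was -3.37 at 24 h and 0.63 at 36 h, and lower were Snora73b (-2.34), Snora9 (-1.86), Snora73a (-1.40) and Snora44 (-1.21). The values of Snora47 and Snora73b each rest on a count of 0. Of the better counted members Snora78 (-0.98), Snora31 (0.95) and Snord49a (0.65) were the farthest from 0. For 4 members the 24 h library of MYC and the 36 h library of MYC-TET1 both lay above the other 2, and for 4 both lay below, together 18.2% beside 26.3% of all rows.

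The RNAs of genes for proteins that make and use these RNAs were below 2-fold. Of 38 such genes in 6 lists (the C/D core, the H/ACA core, assembly, Cajal body and nucleolus, the U3 particle, and processing and decay), none was 2-fold different in the plasmid comparison at 24 h or 36 h, by time or in the crossed contrast. All 38 had at least 100 summed counts. Of all such rows, 5.07% were past 2-fold at 24 h, 6.37% at 36 h, 4.04% by time and 3% in the crossed contrast. The log2 plasmid ratios of the 38 genes were between -0.36 and 0.28 at 24 h and between -0.46 and 0.42 at 36 h. Their medians were 0.00 at each time, as for all rows (-0.01 and 0.01). The methyltransferase Fbl was at 0.13 and 0.09, and the H/ACA pseudouridine synthase Dkc1 at -0.28 and 0.05. Coil, the Cajal body marker, was at 0.13 and -0.06. Fbl had 13448 counts in MYC at 24 h, far more than any member.

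Of the 18 Snhg and Gas5 rows with at least 20 counts, 2 were lower and none higher at 24 h, and 1 was higher and 2 lower at 36 h, beside 13.6% and 15.6% of all rows in either direction, with a median log2 ratio of -0.01 at each time. Snhg20 was the higher one, with 971 and 1779 counts at 24 h and 791 and 2268 at 36 h, and holds no member. Lower at both times was Snhg14, with 12 and 5, then 9 and 0 counts. Of 2 rows named Snhg4, 1 was lower at 24 h and the other at 36 h. Among the 33 rows with a Mir name and number and at least 20 counts, host genes of microRNAs included, 9 were 2-fold different at 24 h, beside 13.6% of all rows, and 14 at 36 h, beside 15.6%. Of the 22 of them with fewer than 100 counts 8 and 13 were, beside 49.8% and 54.7% of rows of like counts. Of 4 U RNA rows 2 and 3 were.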

How the data were processed

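The data were 4 RNA-seq libraries of GC-1 cells, whose groups were taken from the labels. The authors deposited 1 table with a whole-number estimated count and an FPKM value of each row in each library. How the authors aligned reads and made these estimated counts is not given in the sources used here. The submitters' processing notes name Bowtie 0.12.2, mm8 and mm9 with no role, but all 44 members had the coordinates of GENCODE M21 on GRCm38. In rows with 1 transcript and 1 to 100 counts, 99.8% to 99.9% of the deposited counts equalled FPKM times transcript length and a library constant, rounded up (tolerance 0.02), and 3.17% to 4.23% of these products were whole. A count of 1 thus stands for any estimate above 0 and up to 1.

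Counts were divided by the library total (60611877 to 72547105), with 0.5 added for log2 ratios. A row was called different at 2-fold or more, and no test was run, with 1 library per condition. Intervals were exact Clopper-Pearson 95% intervals, and they and the limit of 3 counts cover counting error only. A host was a gene on the same strand containing the member. Near-identical copies (at least 95% identity over 90% of the length) came from blastn 2.17.0. Calculations used Python 3.11.15, and edgeR 4.0.16 gave TMM factors for scaling only. The ratio functions were tested on simulated data.

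The members and gene lists were chosen with earlier results of these data known. Members were named when they were among the 10 with the most counts, 2-fold the same way at both times, among the 4 highest or lowest in a comparison with at least 100 counts, a scaRNA, in the hosts with the most members, well known snoRNAs, or next to the limit of 20 counts. No row named Snord3a was used here. Alternatives were TMM scaling, FPKM with a pseudocount of 0.1, a pseudocount of 5 counts, filters of 100 and of 1 count, a 4-fold line, intervals, and members in exons left out. Added once the data had been seen were estimates before rounding up, copies or Snora7a left out, and counts below 3 raised to 3. The host genes of 2 members are not reported here.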

Additional observations from a re-analysis of the deposited data

Results flagged for a closer look

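Snora47 was the only member at least 2-fold different in opposite directions at the 2 times, beside 3.36% of all rows. It is an H/ACA RNA in an intron of Zbed3 and had 15 and 6 counts at 24 h in the MYC and MYC-TET1 libraries, and 0 and 5 at 36 h. Its log2 plasmid ratio was -1.35 at 24 h, with an interval of -3.07 to 0.03 that held equal levels, and 3.20 at 36 h, which depends on the 0.5 added to a count of 0. The exact interval at 36 h began at -0.39, had no upper limit and held equal levels too. With the limit of 3 counts in place of the 0 the ratio was 1.39-fold. The difference between the times was not tested. Zbed3 was at 0.00 and 0.09. With 1 library in each group, no library could be set against others of its group.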

How the results depend on the processing

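The plasmids were compared within each time and as the average of both times. A model with plasmid and time as added terms would leave 1 residual degree of freedom and was not run, and no library was left out, since each condition had 1. The counts of members past 2-fold were 15 at 24 h, 19 at 36 h, 8 the same way at both times, 14 by plasmid averaged over time, 12 by time and 7 in the crossed contrast. In that order, a filter of 100 summed counts left 1, 5, 1, 1, 0 and 0 of 9 members. Beside them stood 5.07%, 6.37%, 1.07%, 3.27%, 4.04% and 3% of all rows with at least 100 counts. In the same order, a 4-fold line left 7, 8, 2, 7, 5 and 2. Leaving out members in an exon of another gene left 7, 12, 5, 6, 6 and 2 of 27. With a pseudocount of 5 counts the last 5 were 8, 3, 9, 6 and 2. The 8 at 36 h were 2 higher and 6 lower, in place of 12 and 7. The 9 by plasmid were 4 higher and 5 lower, in place of 8 and 6. With every row of at least 1 count, 117 in all, the counts were 32 at 24 h, 46 at 36 h, 36 by plasmid, 31 by time and 27 crossed, and the median log2 difference between member and host by time was -0.00509 over 109 rows in place of -0.29, and by plasmid at 36 h -0.24 in place of 0.00. With the filter of 100 counts that value was 1.05 over 7 members. No share of all rows was set beside the counts for the 4-fold line, the pseudocount of 5 or the rows of at least 1 count. With an interval without equal levels 3 members passed at both times, beside 10 at 24 h (11% of all rows) and 13 at 36 h (13.1%). In the crossed contrast, estimates before rounding up gave 11 and leaving out near-identical copies gave 4. TMM scaling, FPKM and leaving out Snora7a kept every count within 1.5 times. The cause of these shifts was not tested beyond the smaller or larger number of rows that a filter leaves. No 2-fold value of a named member changed its direction under TMM scaling, FPKM, a pseudocount of 5 or estimates before rounding up. TMM scaling moved the median of all rows by at most 0.03 on the log2 scale. Only 16 of the 44 members had at least 10 counts in every library, which limits the ratios of the others. Before rounding up, 4 members had fewer than 20 counts.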
